A study of Chlorocebus sabaeus with 32 samples.

Results

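The 8 CA field pyramidal markers WFS1, POU3F1, FIBCD1, MPPED1, RGS14, PCP4, AMIGO2 and CPNE4 were followed through the hippocampus of 32 vervet monkeys (Chlorocebus sabaeus). They were picked by name: all 8 are among the 33994 gene rows of the deposited count table, and none was at 0 in any library. Ribosomal RNA had been depleted with a Ribo-Zero Gold kit from total RNA, and stranded TruSeq libraries were sequenced. All 32 animals share the age class "under 1 yr" and the source tissue hippocampus, and no treatment, genotype, sex or exact age is given. Since each library's title carries an identifier of its own, 1 library was taken as 1 animal, so p-values describe the spread between these libraries.

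Titles begin with 4 digits and go on with a number, and no source used here says what either stands for. By these 4 digits the libraries fall into groups named prefix2010, prefix2009 and prefix2011. The group prefix2010 holds 16 libraries (9 with a number of at least 20000, called high, and 7 with a low number), prefix2009 holds 14, all with low numbers, and prefix2011 holds 2, both high. Libraries held between 9347635 and 19673621 counts in genes (median 16201657).

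The hippocampus sends its main signal from dentate granule cells to CA3, CA2 and CA1 pyramidal cells, and each of these fields has a gene set of its own in the mouse. Among the CA1 markers of the mouse, WFS1 encodes wolframin, a protein of the endoplasmic reticulum, and POU3F1 a POU domain transcription factor that cells of the myelinating lineages also use. FIBCD1 is a transmembrane receptor with a fibrinogen C domain, and MPPED1 holds a metallophosphoesterase domain. RGS14, PCP4 and AMIGO2 are CA2 markers in the mouse: a regulator of G protein signalling that restrains plasticity, a small calmodulin-binding protein that is also made in the dentate gyrus, and a cell adhesion protein. CPNE4, a copine that binds membrane lipids in response to calcium, was placed in neither field. PROX1, a homeobox transcription factor that marks dentate granule cells, served as the counterpart. No sequence is shown, since only a table of gene names was at hand.

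Levels are given as CPM, the count of a gene relative to the summed gene counts of its library after TMM scaling. CPM does not correct for gene length, so levels are compared between libraries and not between genes. In bulk tissue, fewer cells of a type and less RNA per cell cannot be told apart.

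A pair of libraries stood apart from the other 30. They were picked after their values had been seen. WFS1 was at 108 CPM in prefix2010 replicate 2 and at 104 CPM in prefix2009 replicate 1, against 36.9 to 72.8 CPM in the other 30 libraries. FIBCD1 was at 11.5 CPM in the prefix2010 library and 17.8 CPM in the prefix2009 library, against 44.5 to 323 CPM in the others. Thus one CA1 marker was at its highest, and another at its lowest, in the same pair. CPNE4 was at 42.7 CPM in the prefix2010 and 34.5 CPM in the prefix2009 library, against 60.3 to 195 CPM. PROX1 was at 20.2 CPM in the prefix2010 and 39.1 CPM in the prefix2009 library, against 46.7 to 186 CPM.

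Other markers were looked at in 17 lists with 99 genes, PROX1 included. Some were also out of range on the same side in both libraries, and all of these are named next. The share of all genes out of range in both was not counted, so the names below describe this pair and are not a result about cell types. Below the range of the other 30 were C1QL2, a secreted protein of dentate granule cells, GRIK4, a kainate receptor subunit of CA3, NTF3 and AVPR1B, CA2 markers at few counts, and NEUROD2, NEUROD6 and NPTX1, which are 3 of 6 genes of pyramidal cells in general. NEUROD2 was at 30.8 CPM in the prefix2010 library and at 30.7 CPM in the prefix2009 library, against 65.3 to 122 CPM. Of the remaining 3 general genes, SLC17A7 and CAMK2A lay just inside the range, and NRGN, a calmodulin-binding protein, was at 91.6 CPM in the prefix2010 and 106 CPM in the prefix2009 library, in the upper part of a range of 41.1 to 117 CPM. Above the range stood PPP1R1B, a striatal signalling protein (253 CPM in the prefix2010 and 82.8 CPM in the prefix2009 library, against 32.3 to 81.4 CPM), the immediate early gene EGR1, and CUX2 and RORB, transcription factors of upper neocortical layers: CUX2 reached 53.3 CPM in the prefix2010 and 110 CPM in the prefix2009 library, against 8.33 to 27.1 CPM. The summed neocortical and subicular markers (RORB, CUX2, FEZF2, TLE4, TBR1, LAMP5) were at 211 CPM in the prefix2010 and 309 CPM in the prefix2009 library, the highest 2 of 32, against 119 to 194 CPM. The 4 other genes of that sum were not above the range in both: all 4 were inside it in the prefix2010 library, and in the prefix2009 library TLE4 and TBR1 were above it and FEZF2 (11.5 CPM against 18.1 to 42.0 CPM) and LAMP5 (11.2 CPM against 26.8 to 89.8 CPM) below it.

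Each of the pair had features of its own. Prefix2010 replicate 2 carried 899 CPM of summed striatal and thalamic markers, against 78.4 to 322 CPM in the other 30, with 455 CPM of the striatal peptide gene PENK. In prefix2009 replicate 1 the same sum was 120 CPM, inside the range of the others, and PENK was at 2.79 CPM, below their 9.11 CPM. Prefix2009 replicate 1 had the lowest count in genes and the highest share of reads in no feature, 67.1%, against a lowest share of 51.3% and a median of 56.2% over all libraries. RGS14 separated the pair: it was at 113 CPM in the prefix2010 library, inside the range of the others, and at 25.2 CPM in the prefix2009 library, below their 64.1 CPM. Whether tissue from outside the CA fields accounts for these values was not tested. Results that rest on these libraries are given with and without them.

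**Figure D1:**
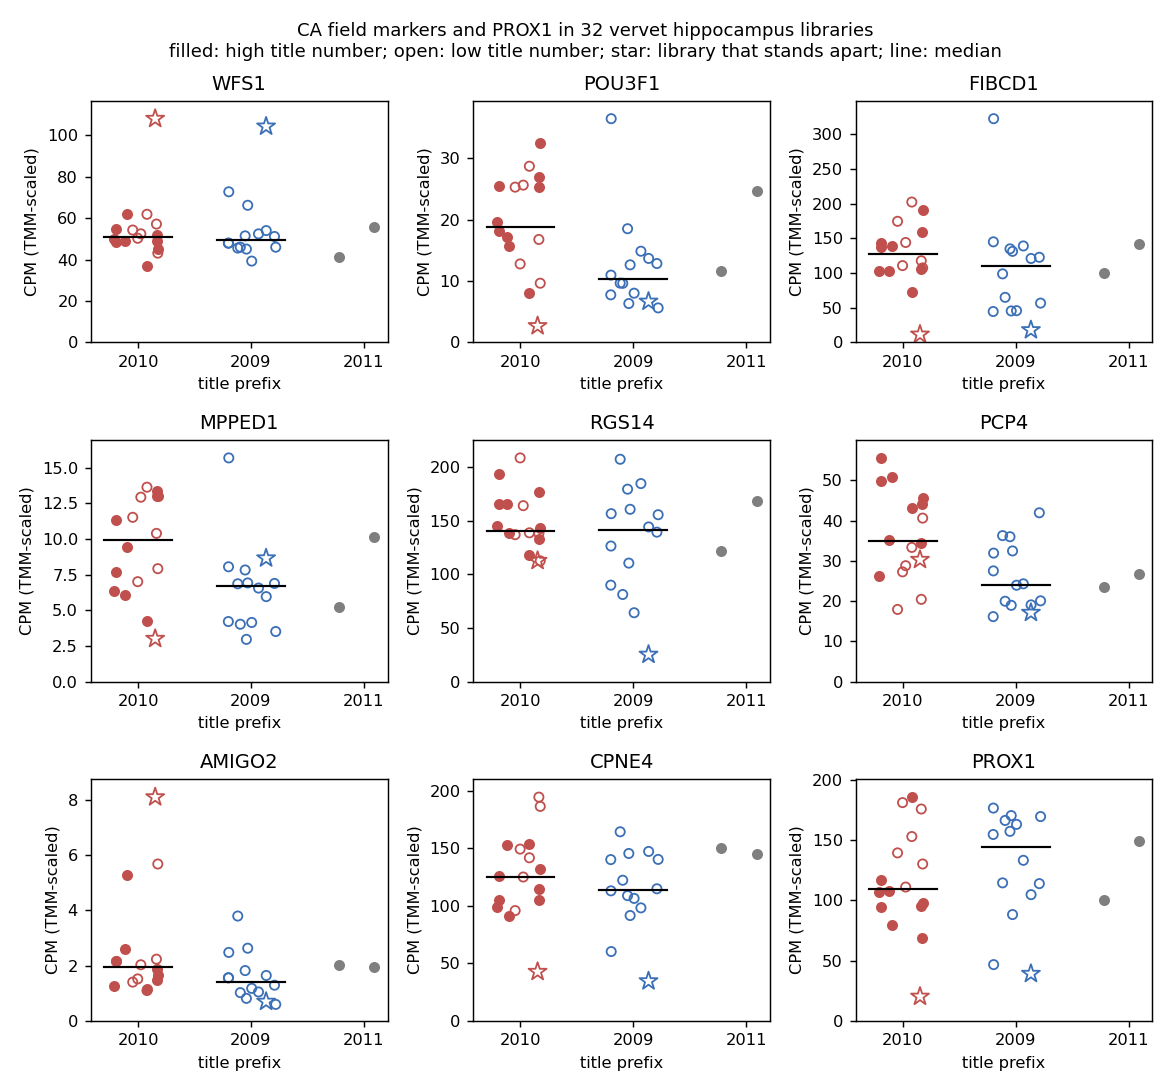
TMM-scaled CPM of the 8 markers and PROX1 (y axes, from 0) by title prefix (x axes); each point is 1 of 32 libraries, filled for high and open for low title numbers, stars are the 2 libraries that stand apart and lines are medians of prefix2010 and prefix2009. The stars are the highest 2 points for WFS1 and the lowest 2 for FIBCD1, CPNE4 and PROX1.

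The CA1 markers differed in how much they varied. WFS1 varied least of the 8, with 54.4 ± 15.5 CPM (SD, n = 32) and a biological coefficient of variation (BCV, the spread beyond counting error) of 0.23. FIBCD1 had 117 ± 59.8 CPM and a BCV of 0.54, and its highest library exceeded its lowest 28.2-fold. POU3F1 had 16.3 ± 8.60 CPM and a BCV of 0.51, and MPPED1 8.09 ± 3.53 CPM and a BCV of 0.42. The median BCV over the 19959 genes that passed the count filter was 0.16, so all 4 lay above it.

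Among the CA2 markers, RGS14 was at 141 ± 39.7 CPM (SD, n = 32), with a BCV of 0.32. PCP4 was at 31.2 ± 10.8 CPM, also with a BCV of 0.32, and its libraries ran from 16.1 to 55.5 CPM. AMIGO2 was the least counted of the 8, with 7 to 99 counts per library and 2.12 ± 1.58 CPM. Its BCV of 0.54 comes with a counting error of 37.8% at 7 counts and 19.3% at its median of 27 counts. In the reference gene table AMIGO2 overlaps PCED1B, another protein-coding gene, and PROX1 overlaps a long noncoding RNA gene. No source used here states whether reads were counted by strand, so the values of both are uncertain. CPNE4 was at 122 ± 36.1 CPM, with a BCV of 0.32, and PROX1 at 122 ± 43.4 CPM, with a BCV of 0.40.

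Yet another library, prefix2009 replicate 5, marked the other end for the CA1 markers. It had the highest level of all 32 libraries for POU3F1 (36.5 CPM), FIBCD1 (323 CPM) and MPPED1 (15.7 CPM). WFS1, at 72.8 CPM, was there the highest outside the pair that stood apart. In the same library PROX1 (46.7 CPM) and CPNE4 (60.3 CPM) were the lowest of the 30. Its RGS14 and PCP4 levels, 156 and 31.9 CPM, lay near the medians of the 32 libraries, 141 and 29.5 CPM.

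Covariation between the markers was measured as Pearson's r and Spearman's rho of log2 CPM over the libraries, with two-sided permutation tests adjusted over 36 pairs, 28 among the markers and 8 with PROX1. With 100000 resamples, 1e-05 is the smallest p they can give before adjustment. POU3F1, FIBCD1 and MPPED1 rose and fell together. Pearson's r was 0.87 for POU3F1 and FIBCD1 (rho 0.84), 0.87 for POU3F1 and MPPED1 (rho 0.83), and 0.71 for FIBCD1 and MPPED1 (rho 0.79), each with an adjusted permutation p of 7.2e-05 for r and 0.00012 for rho. Without the libraries farthest from the median of the first gene, r was 0.80, 0.84 and 0.87 for these pairs.

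These relations were also seen within each prefix. POU3F1 and FIBCD1 had r = 0.91 in prefix2010 and 0.86 in prefix2009, with adjusted permutation p of 0.00072 and 0.00234. For POU3F1 and MPPED1, r was 0.89 in prefix2010 and 0.79 in prefix2009 (adjusted permutation p = 0.00036 and 0.00828). FIBCD1 and MPPED1 had r = 0.82 in prefix2010, and 0.58 in prefix2009, where the adjusted permutation p was 0.0668. Without prefix2009 replicate 1, that value was 0.95, with an adjusted permutation p of 0.0006.

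Set against every other gene that passed the filter, over 32 libraries FIBCD1 was the gene with the 5th and MPPED1 the one with the 6th highest r with POU3F1 among 19958, and over the 30 libraries their ranks were 19 and 3. POU3F1 in turn had the 2nd highest r with FIBCD1 and the 2nd highest with MPPED1 over 32 libraries, and ranks of 4 and 2 over the 30. These ranks are a description without a test.

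WFS1, the fourth CA1 marker, did not join the other 3 over all 32 libraries. Its r was -0.12 with POU3F1, -0.33 with FIBCD1 and 0.18 with MPPED1, with adjusted permutation p of 0.633, 0.128 and 0.485. By rank the values were positive, with rho of 0.35, 0.32 and 0.46, and that with MPPED1 passed (adjusted permutation p = 0.0306). Over the 30 libraries without the pair that stood apart, an alternative chosen after the data had been seen, r was 0.59 with POU3F1, 0.66 with FIBCD1 and 0.60 with MPPED1, with adjusted permutation p of 0.00294, 0.00072 and 0.00294. So the sign of 2 of these relations rested on those libraries.

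Without prefix2009 replicate 5 as well, the WFS1 values were 0.52, 0.57 and 0.54 (adjusted permutation p = 0.0178, 0.00936 and 0.0139). In prefix2010 without replicate 2 they were 0.52, 0.55 and 0.59, none past the threshold (adjusted permutation p = 0.223, 0.204 and 0.155). In prefix2009 without replicate 1 they were 0.79, 0.80 and 0.75, all past it (adjusted permutation p = 0.0116, 0.00302 and 0.0145).

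**Figure D2:**
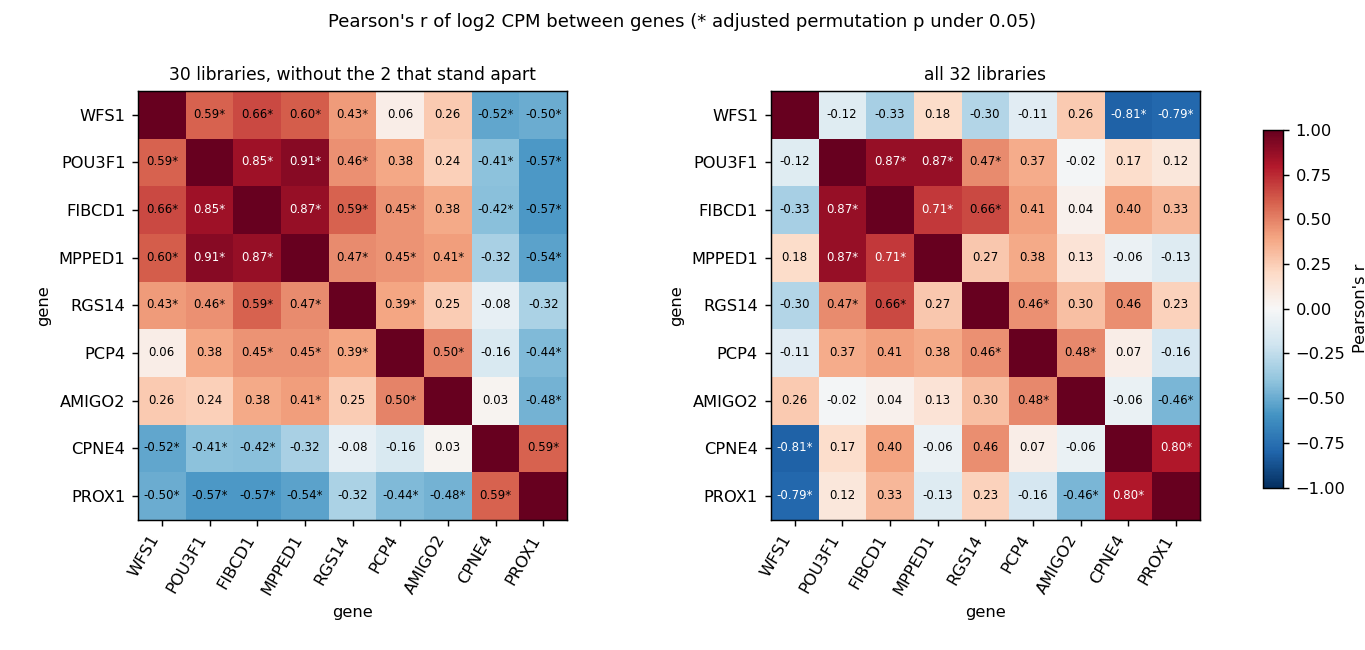
Pearson's r of log2 CPM for each pair of the 8 markers and PROX1 (rows and columns), over 30 libraries without the 2 that stand apart (left) and over all 32 (right); red is positive, blue negative, and a star marks an adjusted permutation p under 0.05. The WFS1 row turns from 0.59, 0.66 and 0.60 with the other CA1 markers on the left to -0.12, -0.33 and 0.18 on the right.

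Relations among the CA2 markers were looser. PCP4 and AMIGO2 had r = 0.48 (rho 0.50, adjusted permutation p = 0.0199 and 0.0188), and RGS14 and PCP4 r = 0.46 (rho 0.43, adjusted permutation p = 0.0199 and 0.0430). For RGS14 and AMIGO2, r was 0.30, with an adjusted permutation p of 0.175. Without the 2 libraries farthest from the first gene's median, PCP4 and AMIGO2 had 0.50, and RGS14 and PCP4 had 0.38 and no longer passed (adjusted permutation p = 0.0694).

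Neither relation passed within a prefix: for PCP4 and AMIGO2, r was 0.21 in prefix2010 and 0.63 in prefix2009 (adjusted permutation p = 0.553 and 0.0535), and for RGS14 and PCP4 it was 0.11 in prefix2010 and 0.58 in prefix2009 (adjusted permutation p = 0.768 and 0.0598). Leaving out single libraries also ended these calls: the lowest r of PCP4 and AMIGO2, 0.42, came without prefix2010 replicate 8, and that of RGS14 and PCP4, 0.39, without prefix2009 replicate 1, and over all such fits the adjusted permutation p reached 0.0577 for the first pair and 0.0817 for the second.

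Across the fields, 2 of the 12 pairs of a CA1 with a CA2 marker passed by r, both positive and both with RGS14. By rho 4 passed, these 2 and those of PCP4 with POU3F1 (rho 0.43, adjusted permutation p = 0.0430) and FIBCD1 (rho 0.42, adjusted permutation p = 0.0460). FIBCD1 and RGS14 had r = 0.66 (rho 0.50, adjusted permutation p = 0.00329 and 0.0188), and POU3F1 and RGS14 had r = 0.47 (rho 0.53, adjusted permutation p = 0.0282 and 0.0116). Without the farthest libraries r was 0.59 and 0.51 for these pairs. For FIBCD1 and RGS14, r was 0.44 in prefix2010 and 0.80 in prefix2009 (adjusted permutation p = 0.198 and 0.0054). POU3F1 and RGS14 passed in neither, with 0.49 in prefix2010 and 0.48 in prefix2009 (adjusted permutation p = 0.157 and 0.155), and leaving out 1 library took its adjusted permutation p as high as 0.0541. Over the 30 libraries 7 of the 12 cross-field pairs passed by r and 2 by rho, all positive. Markers of the 2 fields were thus not opposed to each other in any pair that passed.

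CPNE4 ran against WFS1 and along with PROX1. Its r with WFS1 was -0.81 (rho -0.55, adjusted permutation p = 0.00012 and 0.00785), and with PROX1 0.80 (rho 0.55, adjusted permutation p = 7.2e-05 and 0.00785). Without the libraries farthest from the first gene's median, which were here the pair that stood apart, these values were -0.52 and 0.59 (adjusted permutation p = 0.0121 and 0.00324). None of the 6 remaining pairs of CPNE4 with a marker passed over all 32 libraries.

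Within prefix2010 the CPNE4 relations by r lost their call without 1 library, and within prefix2009, which holds replicate 5, they kept it. By rho no pair of CPNE4 with a marker passed within either prefix. With PROX1, 0 positive pairs passed by rho within prefix2009, with or without its library that stood apart. Within prefix2010 1 did, and 0 without its library that stood apart. With WFS1, r was -0.76 in prefix2010 and -0.89 in prefix2009 (adjusted permutation p = 0.0468 and 0.0054), and without the library of each that stood apart it was -0.35 and -0.71 (adjusted permutation p = 0.513 and 0.0234). With PROX1, r was 0.87 in prefix2010 and 0.83 in prefix2009 (adjusted permutation p = 0.00243 and 0.0133), and without the library of each that stood apart both were 0.66, of which the prefix2009 value passed (adjusted permutation p = 0.0780 and 0.0483). Without prefix2009 replicate 5 in addition to the pair, r over the remaining 29 libraries was 0.41 with PROX1 and -0.35 with WFS1, and neither passed (adjusted permutation p = 0.0547 and 0.0918).

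**Figure D3:**
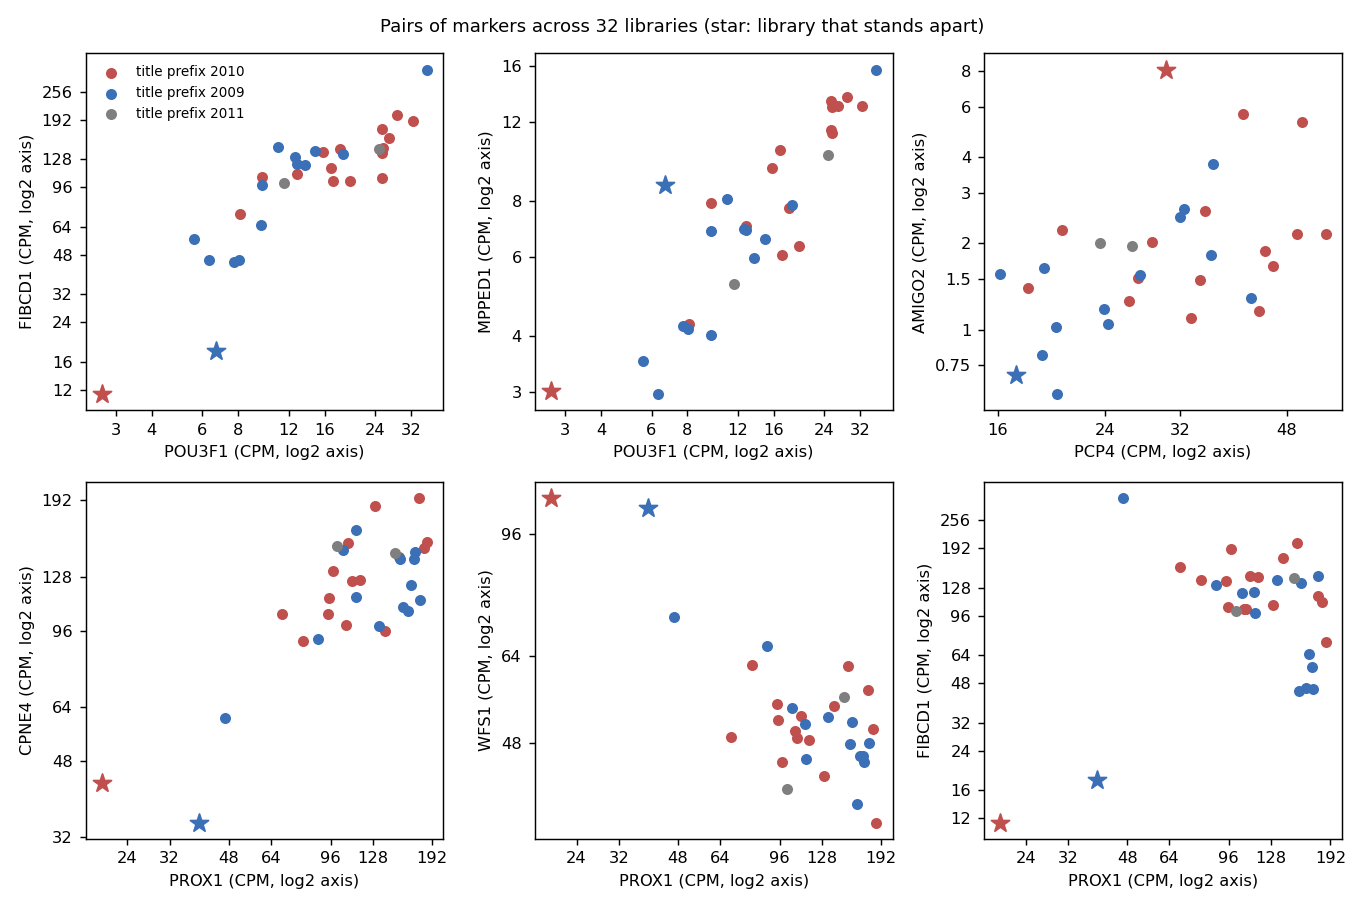
Levels of 6 pairs of genes across the 32 libraries (both axes CPM on a log2 scale); points are libraries coloured by title prefix, and stars are the 2 that stand apart. POU3F1 climbs with FIBCD1 and MPPED1 (r = 0.87 each), and the stars and prefix2009 replicate 5, with 46.7 CPM of PROX1, lie at the left end of the PROX1 panels.

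PROX1 was next set against the CA1 and CA2 markers. WFS1 had r = -0.79 with PROX1 (rho -0.50, adjusted permutation p = 7.2e-05 and 0.0188) and AMIGO2 r = -0.46 (rho -0.45, adjusted permutation p = 0.0338 and 0.0334). POU3F1, FIBCD1 and MPPED1 had r of 0.12, 0.33 and -0.13 and did not pass, and neither did RGS14 at 0.23 or PCP4 at -0.16. Within prefixes, WFS1 and PROX1 had r = -0.75 in prefix2010 and -0.92 in prefix2009 (adjusted permutation p = 0.0694 and 0.00072), and -0.50 without the farthest libraries (adjusted permutation p = 0.0145). For AMIGO2 and PROX1, r was -0.65 in prefix2010 and -0.18 in prefix2009 (adjusted permutation p = 0.0515 and 0.726), and -0.26 without the farthest libraries (adjusted permutation p = 0.232). The AMIGO2 relation over all libraries rested on 1 of them: without prefix2010 replicate 2 their r was -0.21, with an adjusted permutation p of 0.318.

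Over the 30 libraries the picture of the CA1 markers was another one. The pair left out had been picked after these values had been seen, and its PROX1 and FIBCD1 levels lay below those of all the others. Leaving it out in itself moves r with PROX1, so the p-values given next describe these libraries and are not an unbiased test. All 4 had a negative r with PROX1 that passed: -0.57 for POU3F1, -0.57 for FIBCD1, -0.54 for MPPED1 and -0.50 for WFS1, with adjusted permutation p of 0.00356, 0.00475, 0.00756 and 0.0134. By rank, POU3F1 (rho -0.57, adjusted permutation p = 0.00576) and MPPED1 (rho -0.44, adjusted permutation p = 0.0391) passed, and FIBCD1 and WFS1 did not (rho -0.39 for both, adjusted permutation p = 0.0555 for both). Of the CA2 markers, PCP4 at -0.44 and AMIGO2 at -0.48 passed (adjusted permutation p = 0.0262 and 0.0196) and RGS14 at -0.32 did not (0.106).

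Prefix2009 replicate 5 carried part of this. Without it, r with PROX1 over 29 libraries was -0.50 for POU3F1, -0.44 for FIBCD1 and -0.46 for MPPED1, all still past the threshold (adjusted permutation p = 0.0221, 0.0342 and 0.0280), while WFS1 at -0.32 was not (0.128). Among the 15 libraries of prefix2010 without replicate 2, none of the 8 markers passed with PROX1. There r was -0.51 for POU3F1, -0.31 for FIBCD1, -0.42 for MPPED1 and -0.20 for WFS1. The 13 libraries of prefix2009 without replicate 1 still held replicate 5. In them the same 4 had -0.78, -0.74, -0.76 and -0.86, all past the threshold (adjusted permutation p = 0.0162, 0.0145, 0.0145 and 0.00243). By rho, 2 of the 8 markers passed with PROX1 in these 13 libraries, both negative.

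The same question was put to all genes by a fit of counts on PROX1 with edgeR's quasi-likelihood test, with p-values adjusted over every gene tested. A slope is the log2 change per SD of log2 PROX1 CPM, and this SD was 0.70 over 32 libraries and 0.47 over the 30, so slopes of the 2 fits are in different steps. Over 32 libraries 3 of the 8 markers were called, while 11.6% of the 19958 genes tested were (5.64% with a positive and 5.95% with a negative slope). CPNE4 had a slope of 0.42 ± 0.06 (SE, adjusted p = 1.23e-05), WFS1 of -0.27 ± 0.03 (adjusted p = 9.57e-07) and AMIGO2 of -0.44 ± 0.11 (adjusted p = 0.00705). Without prefix2010 replicate 2, AMIGO2 had -0.23 and lost its call (adjusted p = 0.351).

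Over the 30 libraries 5 markers were called: the 4 CA1 markers with a negative slope, against 2.9% of all genes, and CPNE4 with a positive one, against 3.46%. The pair left out had been picked after values of these markers and PROX1 had been seen. The shares of all genes are therefore not an even background for the 5. POU3F1 had -0.38 ± 0.10 (SE, adjusted p = 0.0199), FIBCD1 -0.33 ± 0.09 (0.0171), MPPED1 -0.31 ± 0.09 (0.0374) and WFS1 -0.11 ± 0.03 (0.0456), all adjusted p from edgeR's quasi-likelihood test, and CPNE4 0.21 ± 0.05 (adjusted p = 0.0176). No CA2 marker was called, with -0.33 for AMIGO2 (adjusted p = 0.102), -0.22 for PCP4 (0.0992) and -0.10 for RGS14 (0.382). Without prefix2009 replicate 5 as well, none of the 8 was called by that test. The CA1 slopes were then -0.32, -0.20, -0.26 and -0.06 in the order given (adjusted p = 0.0923, 0.214, 0.130 and 0.303). Of the 19982 genes tested in that fit, 544 had a called positive and 350 a called negative slope.

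Within prefix2010 the slope on PROX1 was 0.26 for POU3F1, 0.52 for FIBCD1 and 0.17 for MPPED1, and within prefix2009 it was -0.40, -0.38 and -0.44, in each case with the library that stood apart included and per SD of that prefix (0.76 and 0.69 on the log2 scale). Of these 6 values MPPED1 in prefix2009 passed (edgeR's quasi-likelihood test, adjusted p = 0.0224). The difference of slopes between the prefixes, prefix2010 minus prefix2009, was tested as an interaction chosen after the data had been seen. It was 0.68 ± 0.29 for POU3F1, 0.90 ± 0.34 for FIBCD1 and 0.63 ± 0.21 for MPPED1 (SE), none past the threshold (adjusted p = 0.431, 0.346 and 0.267). No marker had an interaction that passed by edgeR's quasi-likelihood test, and 18 of 20036 genes did. Without adjustment these 3 markers had a p under 0.05, as did 2034 of the 20036 genes.

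**Figure D4:**
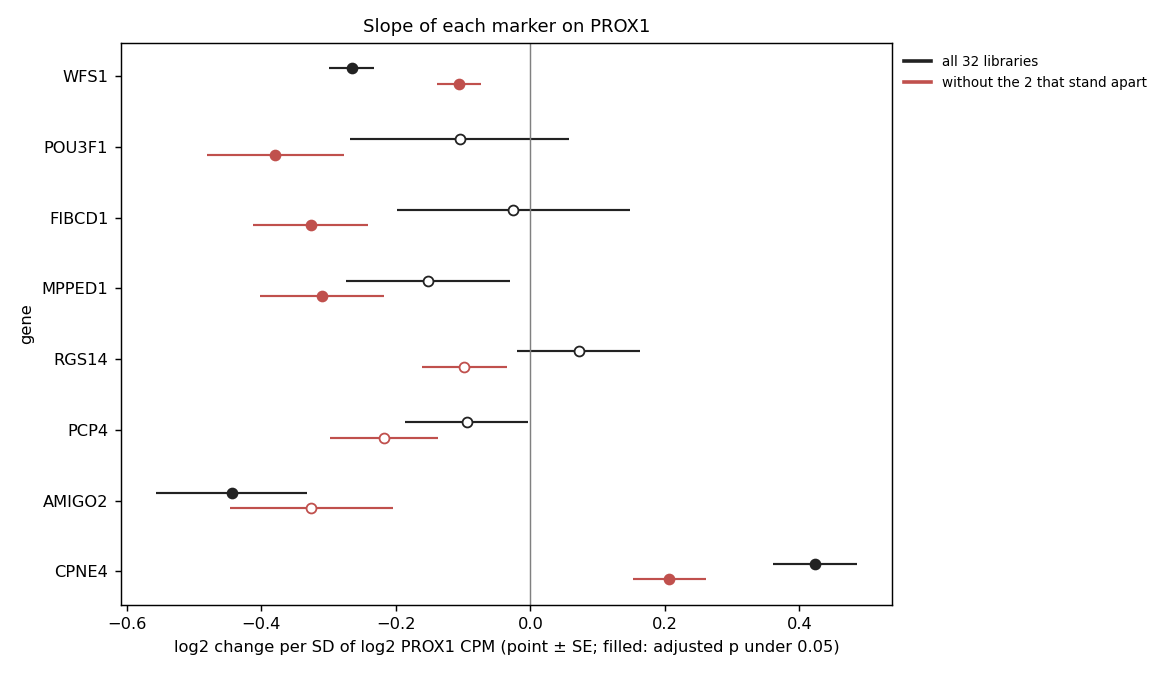
Slope of each marker on PROX1 (x axis, log2 change per SD of log2 PROX1 CPM of the libraries fitted, with the SE as a bar), over all 32 libraries (black) and without the 2 that stand apart (red); filled points have an adjusted p under 0.05 in edgeR's quasi-likelihood test. CPNE4 is the marker right of 0 in both fits (0.42 and 0.21), and POU3F1, FIBCD1 and MPPED1 are filled in red alone.

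Markers of the fields from other lists gave a background for these slopes. Of 5 CA3 markers tested, 3 had a positive slope on PROX1 over 32 libraries: GRIK4 (0.29), NECTIN3, an adhesion protein (0.27), and NPY2R, a neuropeptide Y receptor (0.53), with adjusted p of 8.37e-07, 0.000834 and 0.000185 in edgeR's quasi-likelihood test. Over the 30 libraries GRIK4 and NPY2R were called (0.16 and 0.40, adjusted p = 0.00362 and 0.00353), and NECTIN3, at 0.15, was not (0.0945). The other 2 CA3 markers had negative slopes over 32 libraries that did not pass, -0.12 for CDH24 and -0.08 for BOK (adjusted p = 0.0641 and 0.0969), so the list had no common direction. Of all genes tested, 5.64% had a called positive slope over 32 libraries and 3.46% over 30.

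Of 8 other genes listed as CA2 markers, NTF3, the neurotrophin-3 gene, had a positive slope in both fits (0.90 over 32 libraries and 0.54 over 30, adjusted p = 6.55e-08 and 9.83e-05). Among 13995 named genes, NTF3 had the 3rd highest r with PROX1 over 32 libraries (0.91). Its slope is therefore not read as one of CA2 cells. STRIP2, CACNG5 and PTPN5 had negative slopes over 32 libraries (-0.28, -0.28 and -0.23, adjusted p = 0.000687, 0.0483 and 0.000132), and none of the 3 over 30 (adjusted p = 0.366, 0.525 and 0.479). The CA1 marker CCN3, a secreted matrix-associated protein counted under its older symbol NOV, had a slope of -0.11 over 32 libraries (adjusted p = 0.769) and of -0.40 over 30 (adjusted p = 0.0465). It was 1 of 2 other CA1 markers tested, and the other was called in neither fit. Among general pyramidal genes, 5 of 6 had a positive and 1 a negative slope over 32 libraries, and 2 of 6 a positive one over 30. Striatal and thalamic markers had negative slopes in 5 of 7 over 32 libraries and in 1 of 7 over 30. Of 3 dentate granule markers tested besides PROX1, 1 had a called positive slope over 32 libraries and 0 over 30. Their median slope was 0.19 over 32 libraries and 0.08 over 30, so the other granule markers followed PROX1 only loosely in the fit without the pair.

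Libraries of prefix2010 were then compared with those of prefix2009. PCP4 was the 1 marker of 8 that was called, as higher in prefix2010; over all 23977 genes tested, 12.5% were called (7.11% of all genes tested as higher and 5.35% as lower). The median log2 difference was 0.39 over the 4 CA1 markers and 0.49 over the 3 CA2 markers, against 0.01 over all genes tested. The CA2 median is the value of PCP4 itself, and medians of so few genes do not show a shift of a whole field. With low title numbers only, the CA2 markers had 0.98 (AMIGO2), 0.15 (RGS14) and 0.12 (PCP4).

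PCP4 ran from 17.9 to 55.5 CPM in prefix2010, with a median of 34.8 CPM, and from 16.1 to 41.9 CPM in prefix2009, with a median of 24.1 CPM. The prefixes overlapped, but 14 of 16 prefix2010 libraries lay above the prefix2009 median and 6 above the highest of prefix2009. The log2 difference was 0.49 ± 0.15 (SE, edgeR's quasi-likelihood test, adjusted p = 0.0347). In prefix2011 the values were 26.6 and 23.5 CPM. Leaving out any 1 of 12 libraries, 6 of each prefix, took the adjusted p past 0.05, to at most 0.0615, with log2 differences of 0.44 to 0.48. With low title numbers only, 7 libraries of prefix2010 against 14 of prefix2009, the difference was 0.12 (adjusted p = 0.759). Without the libraries highest in choroid plexus and striatal markers it was 0.46 and missed the threshold (adjusted p = 0.0560).

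Within prefix2010, PCP4 was at 26.3 to 55.5 CPM, with a median of 44.1 CPM, in the 9 libraries with high numbers, against 17.9 to 40.6 CPM, with a median of 28.8 CPM, in the 7 with low numbers. Of the high ones, 6 lay above the highest low one. The log2 difference was 0.59 ± 0.16 (SE), and in that comparison no gene of the 21488 tested, 0.0%, passed by edgeR's quasi-likelihood test (PCP4 adjusted p = 0.168). Without adjustment 1361 genes (6.33%) were higher and 1662 (7.73%) lower at p under 0.05, and DESeq2 called 39 genes higher and 155 lower, PCP4 among the higher ones (adjusted p = 0.0476). The remaining markers had differences between -0.52 (AMIGO2) and 0.27 (POU3F1) there, none past the threshold.

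POU3F1 and MPPED1 came close to the threshold between the prefixes. POU3F1 ran from 2.68 to 32.5 CPM, with a median of 18.9 CPM, in prefix2010, and from 5.62 to 36.5 CPM, with a median of 10.3 CPM, in prefix2009; 13 of 16 prefix2010 libraries were above the prefix2009 median. MPPED1 ran from 3.01 to 13.6 CPM, with a median of 9.93 CPM, in prefix2010, and from 2.96 to 15.7 CPM, with a median of 6.71 CPM, in prefix2009. In both genes 1 prefix2009 library, replicate 5, was above the prefix2010 median, and it was above all of prefix2010.

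The log2 difference was 0.65 ± 0.26 (SE) for POU3F1 and 0.53 ± 0.21 for MPPED1, with adjusted p of 0.0924 and 0.0919 in edgeR's quasi-likelihood test. Without the pair that stood apart they were 0.67 and 0.62 and both passed (adjusted p = 0.0428 and 0.0350), among 8.16% of genes called higher and 7.68% called lower. PCP4 passed there too (0.46, adjusted p = 0.0430). Without prefix2009 replicate 5 alone, POU3F1 had 0.88 (adjusted p = 0.0121) and MPPED1 0.69 (adjusted p = 0.0168), and without prefix2010 replicate 2 alone they had 0.72 and 0.59 (adjusted p = 0.0361 and 0.0471). With low title numbers only, the differences were 0.49 and 0.54 and did not pass (adjusted p = 0.446 and 0.251).

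FIBCD1, which followed POU3F1 across libraries, ran from 11.5 to 202 CPM, with a median of 127 CPM, in prefix2010, and from 17.8 to 323 CPM, with a median of 110 CPM, in prefix2009. Its log2 difference was 0.25 ± 0.29 (SE, edgeR's quasi-likelihood test, adjusted p = 0.628). WFS1 had medians of 51.1 CPM in prefix2010 and 49.6 CPM in prefix2009, and its difference of 0.00 ± 0.12 (SE) took either sign among the settings tried and passed in none.

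AMIGO2 ran from 1.10 to 8.11 CPM, with a median of 1.95 CPM, in prefix2010, and from 0.595 to 3.80 CPM, with a median of 1.42 CPM, in prefix2009. Its log2 difference was 0.71 ± 0.29 (SE, edgeR's quasi-likelihood test, adjusted p = 0.0989), and without the pair that stood apart it was 0.46 (adjusted p = 0.240). Leaving out prefix2009 replicate 12, the highest of its prefix, gave 0.87 and a call (adjusted p = 0.0386). RGS14 (0.20 ± 0.17), CPNE4 (0.15 ± 0.17) and PROX1 (-0.14 ± 0.22) did not pass, with adjusted p of 0.495, 0.607 and 0.733.

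**Figure D5:**
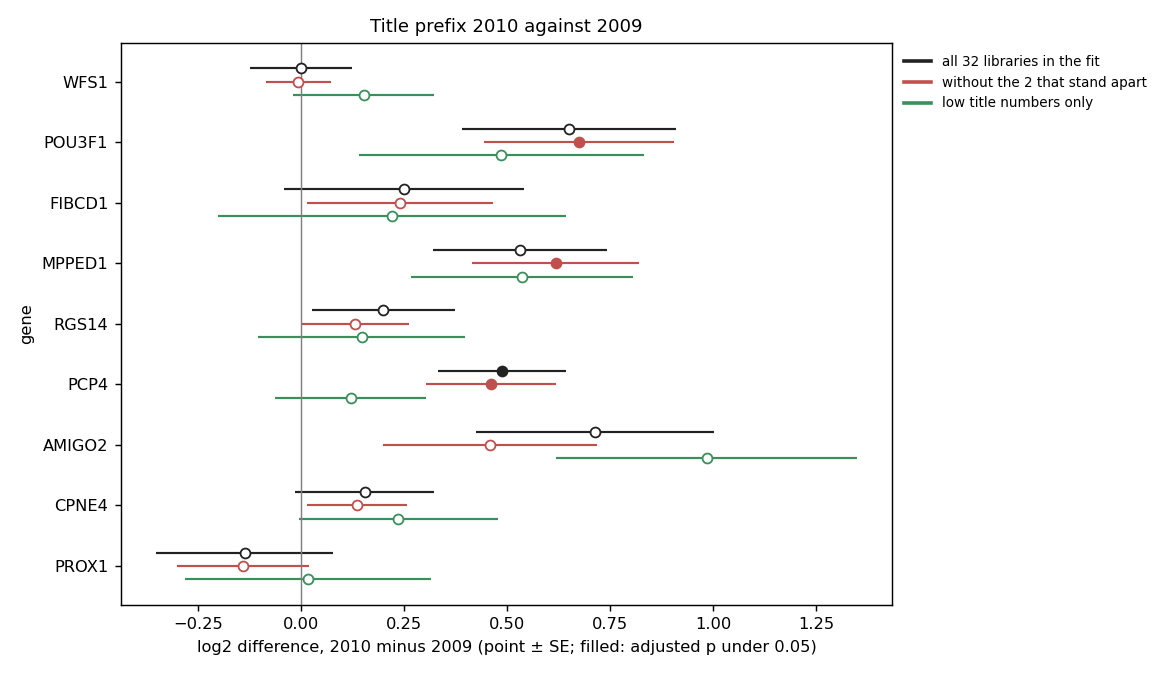
Log2 difference of each marker and PROX1 between title prefixes, prefix2010 minus prefix2009 (x axis, with the SE as a bar), with all 32 libraries in the fit (black), without the 2 that stand apart (red) and with low title numbers only (green); filled points have an adjusted p under 0.05 in edgeR's quasi-likelihood test. PCP4 is filled in black (0.49) and red (0.46) and lies at 0.12 in green, while POU3F1 and MPPED1 are filled in red.

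Beside these, 2 of 8 other CA2 markers were higher in prefix2010: ACAN, the aggrecan core protein of perineuronal nets (0.71, adjusted p = 0.00273), and STRIP2 (0.59, adjusted p = 0.00557), by edgeR's quasi-likelihood test. Of 2 other CA1 markers tested, 1 was higher too, CCN3 (1.03, adjusted p = 0.00549), and the other did not pass. None of 5 CA3 markers passed over all libraries (NPY2R alone had an unadjusted p under 0.05), and NPY2R was lower in prefix2010 without the pair that stood apart (-0.60, adjusted p = 0.0251). Among dentate granule markers, C1QL2 (-0.73) and DOCK10 (-0.34) were lower in prefix2010 (adjusted p = 0.0416 and 0.0138) and the other 4 did not pass. Among these, DSP, the desmosomal protein desmoplakin, had 1.24 (adjusted p = 0.0555), and without the pair that stood apart it was higher in prefix2010 (1.33, adjusted p = 0.0437). DSP had a median of 0.21 CPM and at most 1.78 CPM in the libraries outside the pair, so these values rest on few counts. All 6 immature neuron markers and 4 of 6 oligodendrocyte precursor markers were higher in prefix2010. The summed levels of these lists were 669 to 1841 CPM in prefix2010 and 598 to 1115 CPM in prefix2009 for the first list, and 1137 to 1785 CPM in prefix2010 and 841 to 1535 CPM in prefix2009 for the second. Of 6 general pyramidal genes 2 were lower in prefix2010, the glutamate transporter SLC17A7 (-0.55, adjusted p = 0.00953) and the kinase CAMK2A (-0.37, adjusted p = 0.0255), and without the pair 3 were, with NPTX1. Their summed level was 1918 to 4176 CPM in prefix2010 and 1949 to 5277 CPM in prefix2009. Of 7 striatal and thalamic markers 3 were higher, the receptors DRD2 (0.87) and ADORA2A (1.10) and PENK (1.79), with adjusted p of 0.00161, 0.0280 and 0.0195, and without the pair 1 was (DRD2, 0.66, adjusted p = 0.000563). Their summed level was 92.3 to 899 CPM in prefix2010 and 78.4 to 142 CPM in prefix2009. The part of these lists in the differences of PCP4, POU3F1 and MPPED1 was not tested. With PROX1 as a covariate, PCP4 kept its call (0.47, adjusted p = 0.0400).

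For each marker, the genes most like it over the 32 libraries were those with the highest r of log2 CPM among 13995 named genes with a mean of at least 1 CPM. For POU3F1 these were FGF11, SH3RF1, MET, FIBCD1 and MPPED1 (r of 0.91 to 0.87), for FIBCD1 they were SH3RF1, POU3F1, ZDHHC23, ARHGEF3 and SEPT9 (0.88 to 0.84), and for MPPED1 POU3F1, KCTD15, ADAMTSL3, ADRB1 and ARNT2 (0.87 to 0.85). SH3RF1 was on the first 2 of these lists, and EPB41 was among the 3 genes with the lowest r for the same markers (-0.81 with POU3F1 and -0.86 with FIBCD1). WFS1 was most like LINGO3, ARPP19, PITPNM3, CALHM2 and EPB41L4B (0.88 to 0.82).

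CPNE4 was most like MYCL, ZNF608, SEMA3E, CHGA and PPM1E (r of 0.91 to 0.89) and least like CIT, PITPNM3 and ARPP19 (-0.88 each), of which the last 2 were on the WFS1 list. RGS14 was most like PNO1, DUSP5, GPR144, POMGNT2 and GAL3ST3 (0.81 to 0.78), PCP4 like LAYN, MAOA, B3GALTL, NCAM2 and CHRM5 (0.78 to 0.70), and AMIGO2 like DIRAS3, KIAA1919, GTF2H4, PENK and MAP3K19 (0.76 to 0.68). PENK was at its highest in prefix2010 replicate 2, as AMIGO2 was. None of the 8 markers was among the 5 genes most like any of WFS1, RGS14, PCP4, AMIGO2 or CPNE4. Over the 30 libraries these lists shared 3 genes with the ones above for POU3F1 (FGF11, SH3RF1 and MPPED1), 1 for FIBCD1 (POU3F1), 2 for MPPED1 (POU3F1 and KCTD15), 1 for WFS1 (LINGO3), 1 for CPNE4 (CHGA), 1 for RGS14 (PNO1), 4 for PCP4 (all but NCAM2) and 0 for AMIGO2, so most of the genes named here were not the ones found without the pair that stood apart.

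Depth and read assignment moved with some markers. Over 32 libraries, log2 total gene count had r of -0.46 with WFS1, 0.49 with RGS14, 0.52 with CPNE4 and 0.49 with PROX1, and the share of reads in no feature had r of -0.52 with RGS14, with an adjusted permutation p of 0.0377 for each over 18 relations. By rank none of the 18 passed, within either prefix none did, and none did by either measure over the 30 libraries or without the libraries farthest in depth or share. With the share of reads in no feature as a covariate, the slopes on PROX1 were 0.41 for CPNE4 and -0.25 for WFS1, and both kept their call (edgeR's quasi-likelihood test, adjusted p = 1.11e-05 and 3.23e-06).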

How the data were processed

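The authors deposited raw read counts per gene for 32 hippocampus libraries. STAR and HTSeq were used, per the submitters' processing notes; their versions, the genome build, the annotation and the strand setting are not given. The 5 summary rows were removed before scaling and testing; reads in no feature were 51.3% to 67.1% of reads. Every per-sample column was mapped to a sample. Counts were TMM-scaled and tested with edgeR 4.0.16 (quasi-likelihood, R 4.3.3) after filterByExpr (minimum count 10, total 15, proportion 0.7), with Benjamini-Hochberg adjustment over all genes tested and a threshold of 0.05. The prefix fit holds all 3 prefixes; the number fit holds prefix2010. SE is the log2 value divided by the square root of F. Correlations used log2 CPM with a prior count of 2; levels would have been treated as clusters at a gap of over 0.25 of the range with at least 3 libraries on each side, and none had one. A count of 0 allows up to 3 counts, counting error only.

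Named genes were all 8 markers, PROX1, up to 4 called genes per list, and for each marker the 5 highest and 3 lowest r; the text gives a part of them. The markers and the gene lists were chosen with earlier results of these data known. The reference gene table (assembly mChlSab1.0.hap1) served for symbols and overlaps; AIF1 was not matched. The tests were tried on simulated data with known changes. Alternatives covered scaling, filter, DESeq2 1.42.0, covariates and subsets of libraries. Leaving out the 2 libraries that stand apart, alone or with prefix2009 replicate 5, and the interaction were chosen after seeing the data. A gene of the marker lists is not reported here.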

Additional observations from a re-analysis of the deposited data

Results flagged for a closer look

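In 18 sets of libraries (9 genes, high and low title numbers of prefix2010), 3 held a library far from the rest by Dixon's 95% criterion, which chance meets in about 1 of 20 sets. AMIGO2 was at 5.30 CPM in prefix2010 replicate 8, the highest of the 9 libraries with high numbers, and the next was at 2.60 CPM. PROX1 was at 186 CPM in prefix2010 replicate 5, the highest of the same 9, with the next at 117 CPM. WFS1 was at 108 CPM in prefix2010 replicate 2, the highest of the 7 libraries with low numbers, with the next at 61.9 CPM. The AMIGO2 library also had the highest summed choroid plexus and ependyma markers of all 32, 467 CPM.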

How the results depend on the processing

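No paired analysis was possible because each title number belongs to 1 library and the prefixes share none. Genes higher and lower in prefix2010 numbered 1705 and 1282; low title numbers gave 687 and 475, the no-feature share as a covariate gave 2015 lower, the 29 libraries without the pair that stood apart and prefix2009 replicate 5 gave 1944 lower, and leaving out 1 library gave 1211 to 2112 and 956 to 1758. High against low numbers gave 0 and 0 by edgeR, 39 and 155 by DESeq2, and 0 to 13 and 0 to 8 leaving out 1 library. Slopes on PROX1 numbered 1125 higher and 1188 lower; within prefix2010 434 and 443, within prefix2009 613 and 736, over 30 libraries 695 and 583, over 29 libraries 544 and 350, without the highest choroid plexus and striatal libraries 776 lower, and leaving out 1 library 848 to 1299 and 887 to 1308.

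Marker pairs with a positive r that passed numbered 7 of 28: 4 centred within prefix, 12 without the farthest libraries, 11 without the choroid plexus and striatal libraries, 3 within prefix2010 (3 without its library that stands apart), 4 within prefix2009 (10 without its library that stands apart), 15 over 30 and 13 over 29 libraries, and 6 to 13 leaving out 1. Negative ones numbered 1: 2 without the farthest, 3 over 30, 0 over 29, 0 in prefix2010 and 4 in prefix2009 without the library of each that stands apart, and 1 to 2 leaving out 1. With PROX1, 1 was positive (0 over 29 libraries, 0 in prefix2010 without replicate 2, 1 to 2 leaving out 1) and 2 were negative (0 within prefix2010 with or without replicate 2, 6 over 30, 5 over 29, 4 in prefix2009 without replicate 1, 1 to 2 leaving out 1).

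Some r changed sign and passed. Over 30 libraries these were WFS1 with POU3F1 (0.59), FIBCD1 (0.66) and RGS14 (0.43), CPNE4 with POU3F1 (-0.41) and FIBCD1 (-0.42), and PROX1 with POU3F1 (-0.57) and FIBCD1 (-0.57). Without the farthest libraries 5 of them gave the same values (not POU3F1 with CPNE4 or PROX1). Over 29 libraries WFS1 had 0.52, 0.57 and 0.44 in the same order, and PROX1 had -0.50 and -0.44. In prefix2009 without replicate 1, WFS1 had 0.79 with POU3F1 and 0.80 with FIBCD1, CPNE4 -0.77 and -0.68, and PROX1 -0.78 and -0.74. The r of WFS1 with log2 total gene count changed sign without passing, to 0.11 over 30 libraries. The causes were not tested. Of the other 240 refits of single genes outside leave-one-out, 222 kept their side of the threshold, 10 gained a call and 8 lost one. Depth limits AMIGO2 most.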
